A study of Mus musculus with 2 samples.

Results

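The 104 heavy chain V segments described here are the genes whose mouse symbol begins with Ighv and whose annotated biotype is IG_V_gene. They are 104 of the 36980 gene symbols in the deposited expression table, and GENCODE M21 annotates 113 such genes. All 104 lie on the minus strand of chromosome 12 (build GRCm38), between 113578504 and 116000461. Their RNA was measured in 2 cultures of mouse pro-B cells, B cell precursors sorted from bone marrow by flow cytometry and grown for 4 days in medium with 5 ng/µl of the cytokine interleukin 7. The Setdb1 C/C culture carried undeleted alleles of Setdb1, which encodes a histone H3 lysine 9 methyltransferase. The Setdb1 Δ/Δ culture carried deleted alleles. Both carried a bcl2 transgene (bcl2-tg), a gene that promotes cell survival. The labels do not name what drove the deletion or the transgene, nor the age, sex or strain of the animals.

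Each V segment encodes most of the variable domain of an antibody heavy chain. In pro-B cells the RAG recombinase first joins a D to a J segment and then a V segment to the DJ joint, and the joined exon is spliced to the constant gene Ighm. Unrearranged V segments are also transcribed, as germline transcripts, before they recombine. The segments nearest the D and J segments are called proximal and the farthest distal. PAX5, YY1 and EZH2 are known for bringing distal segments near to the D and J segments or for their rearrangement. The number after Ighv is the V family, a group of segments of similar sequence.

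Since members of a family resemble one another, their sequences bear on how far a value can be assigned to a single segment. The stretches below are the ends of the V exons that the results turn on, from GENCODE M21 transcripts (GRCm38, minus strand), written 5′ to 3′. The capitals mark the codon at the place of the cysteine that V domains share near their end.

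Ighv8-4: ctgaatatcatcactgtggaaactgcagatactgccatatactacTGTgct
Ighv8-6: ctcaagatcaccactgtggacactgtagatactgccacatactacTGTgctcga
Ighv8-9: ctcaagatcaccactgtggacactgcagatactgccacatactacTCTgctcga
Ighv8-11: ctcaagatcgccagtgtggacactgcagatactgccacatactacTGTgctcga
Ighv8-13: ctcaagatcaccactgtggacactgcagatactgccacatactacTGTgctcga
Ighv14-1: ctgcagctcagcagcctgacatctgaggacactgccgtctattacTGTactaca
Ighv14-2: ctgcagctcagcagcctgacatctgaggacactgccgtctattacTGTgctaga
Ighv14-3: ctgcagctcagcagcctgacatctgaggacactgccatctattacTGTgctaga
Ighv5-2: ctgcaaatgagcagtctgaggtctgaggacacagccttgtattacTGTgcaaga
Ighv9-3: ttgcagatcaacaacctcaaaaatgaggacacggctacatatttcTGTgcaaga

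Of the 104 transcripts, 100 held this cysteine codon near their end. In the other 4, Ighv1-18, Ighv1-62-1, Ighv8-9 and Ighv8-12, the search found none. The annotated transcripts of Ighv1-18 and Ighv8-12 have 2 exons in 306 and 315 bases. Those of their relatives Ighv1-19 and Ighv8-11 have 2 exons in 348 and 358 bases. That of Ighv1-62-1 has 90 bases. Such short transcripts may stop before the codon, so they do not show that these segments lack it. In Ighv8-9 the codon in that place was TCT, a serine codon, and the difference from Ighv8-6 was G290C, counted from 1 at the first base of the transcript with the Ighv8-6 base first. Ighv8-6 and Ighv8-9 were 96.3% identical, with 11 substitutions. Each was closer still to Ighv8-13, at 97.7% and 98.7%. Ighv14-1 and Ighv14-2 were 97.2% identical, with 10 substitutions. In all, 19 of the 104 segments were at least 97% identical to another member, and a short read from such a segment can be placed on either copy.

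With 1 library per genotype no difference has a replicate check, and every difference below is one between 2 libraries. The values are RPKM, reads per length of transcript and depth of library, so levels can be compared between segments. Depth, recovered from the values, was 170.6 M reads (M, mega) for C/C and 193.2 M reads for Δ/Δ. Intervals of ratios are exact 95% Poisson intervals, taking 2 reads as 1 fragment, and cover counting error only. Measured genes are those that reached 1 RPKM in either library. It was called lower or higher in Δ/Δ when log2((Δ/Δ + 0.5)/(C/C + 0.5)) was at most -1 or at least 1. In bulk RNA, fewer cells of a type and less RNA per cell cannot be told apart, and reads of germline and of rearranged V transcripts cannot be told apart either. Setdb1 itself measured 17.0 RPKM in C/C against 12.6 RPKM in Δ/Δ, over whole transcripts. Xist, the X inactivation RNA, measured 0.094 RPKM in C/C against 23.7 RPKM in Δ/Δ, and the Y-linked gene Eif2s3y 22.3 RPKM and 0. Genotype and the sex of the animals therefore cannot be told apart for any value below.

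The V segments as a whole were lower in the Δ/Δ library. Their summed level was 500.2 RPKM in C/C against 68.4 RPKM in Δ/Δ, from 30279 and 4558 reads. The pooled ratio of Δ/Δ to C/C, weighted by depth, was 0.133 (0.127 to 0.139), a 7.52-fold lower level. Of the 86 measured members 77 were lower, 1 was higher and 8 lay within the size rule. Of these 86, 83 reached 1 RPKM in C/C and 17 did in Δ/Δ, so most passed the filter through C/C alone. A member that passed so could not be called higher. Ighv8-6, the higher one, passed through Δ/Δ alone and could not be called lower. The counts by position and by family below share this limit, while the sums and the pooled ratio cover all 104 members. Over all 12556 measured genes the same rule called 6.66% lower and 6.28% higher. The median log2 ratio was -2.25 over the measured members and -0.09 over all measured genes.

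In C/C the measured members ran from 0.521 to 23.6 RPKM, with a median of 4.75 RPKM. In Δ/Δ they ran from 0.03 to 4.98 RPKM, with a median of 0.586 RPKM. The ranges of the 2 libraries overlapped, and the highest member of Δ/Δ stood just above the median of C/C. At 5 RPKM or more there were 39 members in C/C and 0 in Δ/Δ. At 1 RPKM or more there were 83 members in C/C and 17 in Δ/Δ. The V total was spread over many segments in both libraries. In C/C the 23 most abundant segments made up 50% of the summed V RPKM, and in Δ/Δ the 21 most abundant did.

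**Figure D1:**
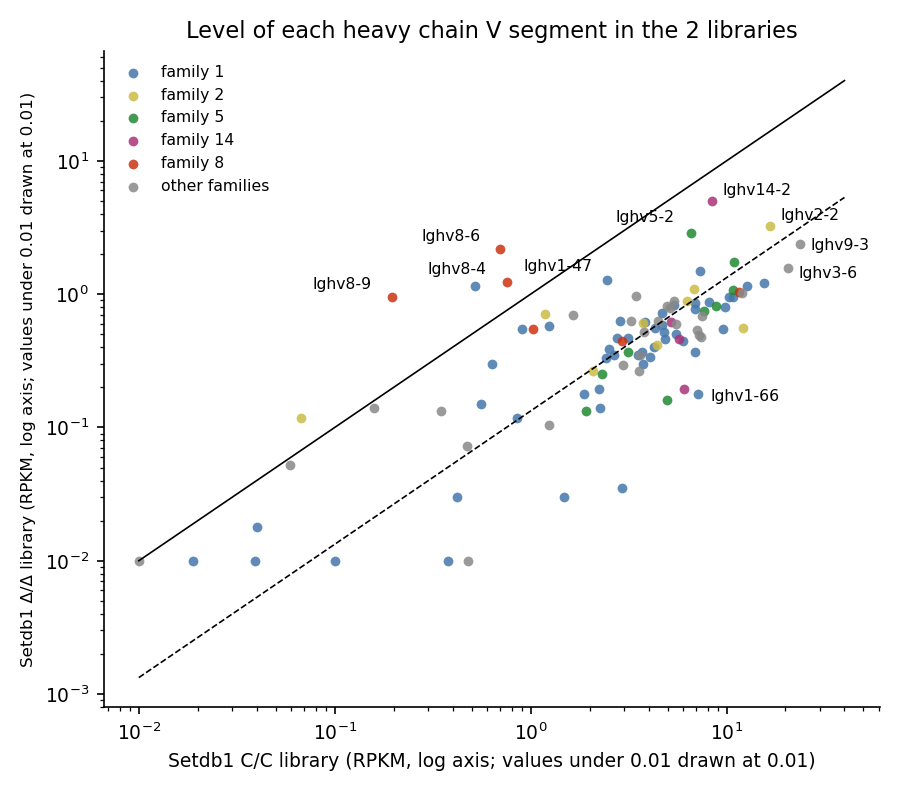
Level of each V segment in the C/C library (x axis, RPKM) and in the Δ/Δ library (y axis, RPKM), both on log axes, with 1 point per segment coloured by family and values under 0.01 drawn at 0.01. The solid line marks equal levels and the dashed line the pooled ratio of 0.133. Most points lie along the dashed line, and 5 segments stand above the solid line.

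The most abundant segments of C/C were low in Δ/Δ. Ighv9-3 (chr12:114140692-114141122) was first in C/C, at 23.6 RPKM, and measured 2.37 RPKM in Δ/Δ, a ratio of 0.101 (0.0788 to 0.127). Ighv2-2, close to the D segments, measured 16.8 RPKM in C/C against 3.25 RPKM in Δ/Δ, a ratio of 0.194 (0.157 to 0.239). Ighv1-26 of family 1, the largest family, measured 15.5 and 1.21 RPKM. Of the 10 most abundant segments of C/C, each was more than 5-fold lower in Δ/Δ. Ighv1-54 measured 12.7 and 1.15 RPKM, Ighv10-1 11.97 and 1.02 RPKM, and Ighv8-12 11.6 and 1.04 RPKM. Ighv5-4 measured 11.0 and 1.73 RPKM, and Ighv1-72 10.8 and 0.958 RPKM. The 2 libraries ranked the segments only loosely alike. Over the 86 measured members the Spearman correlation of the 2 levels was 0.50, across genes that share both libraries.

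The lowest ratios among well expressed segments came from several families. Ighv1-66, a distal segment, measured 7.16 RPKM in C/C against 0.177 RPKM in Δ/Δ, from 488 and 14 reads. Ighv14-3, a proximal segment, measured 6.05 and 0.194 RPKM, from 412 and 15 reads. Ighv2-9, another proximal segment, measured 12.2 and 0.562 RPKM. Among the 8 lowest log2 ratios at 5 RPKM or more in C/C were also Ighv1-5, at 6.88 and 0.370 RPKM, Ighv1-9, at 9.63 and 0.550 RPKM, and Ighv3-6, at 20.7 and 1.57 RPKM. The last 2 of the 8 were Ighv9-3 and Ighv1-26. The 8 thus came from 5 families and from all 3 stretches of the locus.

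At the other end, Ighv14-2 (chr12:113994469-113994898) was the most abundant V segment of the Δ/Δ library. It measured 8.40 RPKM in C/C against 4.98 RPKM in Δ/Δ, from 503 and 338 reads, a ratio of 0.593 (0.485 to 0.724). It ranked 16th of the members in C/C. Its relatives in family 14, 2 of them named after their values were seen, measured 5.73 and 0.457 RPKM (Ighv14-1), 6.05 and 0.194 RPKM (Ighv14-3) and 5.23 and 0.622 RPKM (Ighv14-4). The ratio of Ighv14-2 was thus higher than that of the segment 97.2% identical to it. Ighv5-2 (chr12:113578504-113578990), the V segment nearest the D and J segments, measured 6.58 and 2.88 RPKM, a ratio of 0.438 (0.340 to 0.561). Ighv1-53 measured 7.36 and 1.504 RPKM, Ighv4-1 5.16 and 0.784 RPKM, and Ighv12-3 5.42 and 0.892 RPKM. The interval of Ighv14-2 and that of Ighv5-2 both lay above the pooled ratio.

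To ask how uniform the difference was, plain ratios were taken over the 95 members with at least 20 reads in the 2 libraries together. Of these, 86 had a ratio of 0.5 or less and 3 had a ratio of 2 or more, where 12.1% and 11.4% of all genes with 20 reads did. The median ratio was 0.109, with quartiles of 0.0849 and 0.161, against a median of 0.932 over all such genes. Between 0.0665 and 0.266, from 0.5 to 2 times the pooled ratio, lay 68 of the 95. The counting interval held the pooled ratio for 57 members, lay wholly above it for 16 and wholly below it for 22. The members above it had a median C/C level of 1.21 RPKM and those below it 9.23 RPKM. These medians are not independent of the sorting, since the C/C level is the denominator of the ratio and more reads narrow the interval.

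Along the locus the V segments were lower in each stretch. The 35 proximal members (Ighv5-2 to Ighv7-4) had 27 lower of 30 measured, and a median log2 ratio of -2.24. The 35 middle members (Ighv3-5 to Ighv1-49) had 24 lower of 27 measured, and a median of -2.45. The 34 distal members (Ighv1-50 to Ighv1-85) had 26 lower and 1 higher of 29 measured, and a median of -2.14. The pooled ratios were 0.152 (0.142 to 0.162), 0.105 (0.0960 to 0.115) and 0.137 (0.126 to 0.148). The middle stretch was the lowest in this split, and the interval of its pooled ratio overlapped neither of the others. The order of the medians depended on the setting, and the pooled ratios were not recomputed in other settings. In stretches of equal length the medians were -2.24, -2.24 and -2.25, and with no filter on low values they were -2.14, -2.09 and -1.98 from proximal to distal. Over the 95 members with at least 20 reads, the Spearman correlation of position with the ratio was 0.08. It measures a steady trend and not a dip in the middle. Position and C/C level had a Spearman correlation of -0.18. These are descriptions over segments of the same 2 libraries.

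Position and family are tied, since the proximal stretch holds the 9 members of family 5 and the 9 of family 2, and the distal stretch holds 29 of family 1 and 5 of family 8. Families 1 and 8 both span the middle and distal stretches, and family 1 has many members in each. The middle members of family 1 had a pooled ratio of 0.0988 (0.0862 to 0.113) and its distal members one of 0.118 (0.108 to 0.130). Within the family the 2 stretches thus had overlapping intervals. At the ends of the locus, the most distal measured segments were Ighv1-82 at 8.09 and 0.880 RPKM, Ighv1-84 at 1.87 and 0.177 RPKM, and Ighv1-85 at 3.16 and 0.472 RPKM.

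**Figure D2:**
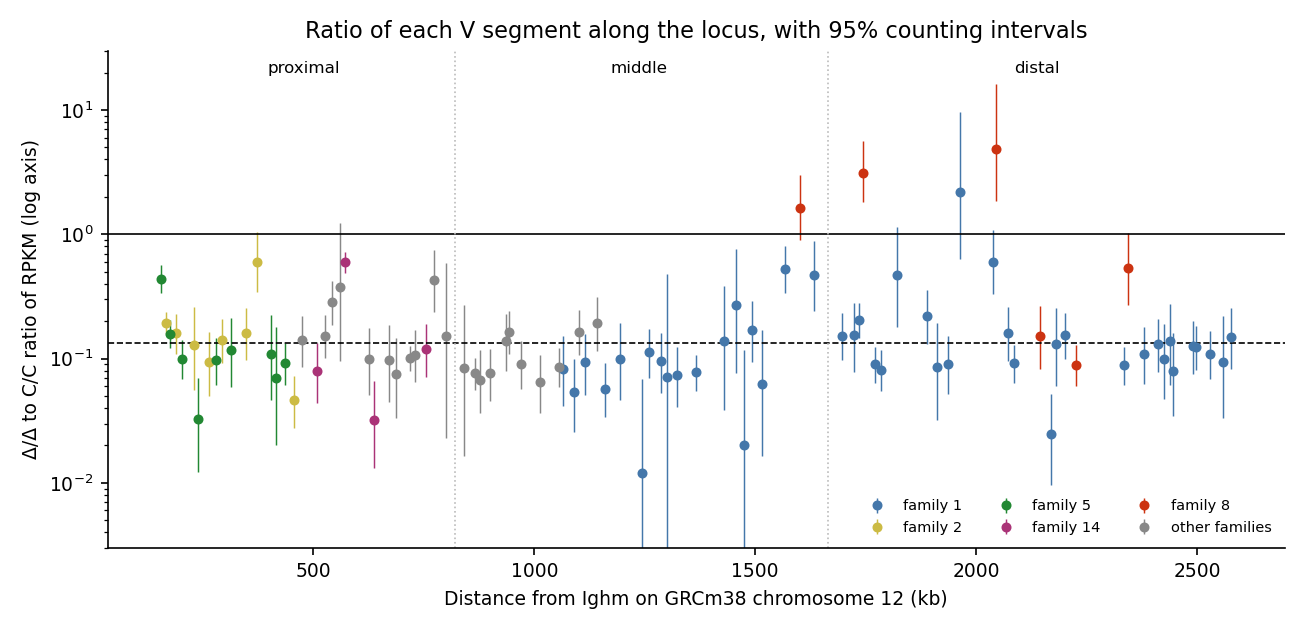
Ratio of Δ/Δ to C/C RPKM (y axis, log) of each V segment with at least 20 reads against its distance from Ighm (x axis, kb), with 95% counting intervals and 1 point per segment coloured by family. The solid line marks a ratio of 1, the dashed line the pooled ratio of 0.133 and the dotted lines the borders of the stretches, and Ighv7-2, listed at 0 in Δ/Δ, is not drawn. The points stay near the dashed line from proximal to distal, with Ighv8-6, Ighv8-9 and Ighv8-4 among those above 1.

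By family, lower members were the rule in each family with measured members other than family 8. Family 1 had 37 lower of 40 measured (median log2 ratio -2.26), family 2 had 7 of 8 (-2.20) and family 5 had 9 of 9 (-2.36). Family 9 had 4 of 4 (-2.69), family 3 had 4 of 5 (-1.52) and family 14 had 3 of 4 (-2.53). The small families followed the same direction. Families 6, 7 and 10 had 2 of 2 lower each, led by Ighv6-3 at 7.52 and 0.683 RPKM, Ighv7-3 at 5.52 and 0.594 RPKM, and Ighv10-1. In the families with 1 measured member, Ighv11-2 measured 2.96 and 0.293 RPKM, Ighv13-2 3.78 and 0.522 RPKM and Ighv15-2 3.26 and 0.634 RPKM. Ighv16-1, the sole member of family 16, had no read in either library.

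Family 8 had the least uniform direction of the families with at least 3 measured members. Of its 5 measured members 2 were lower, 1 was higher and 2 lay within the rule, with a median log2 ratio of -0.54 and a pooled ratio of 0.355 (0.299 to 0.422). The 98 members outside family 8 had a pooled ratio of 0.126 (0.120 to 0.132), and 75 lower and 0 higher of 81 measured. Ighv8-6 (chr12:115165777-115166077), the member higher by the size rule, measured 0.701 RPKM in C/C against 2.18 RPKM in Δ/Δ, from 36 and 127 reads. Its ratio was 3.11 (1.82 to 5.59). The sequence of its V exon is printed because it is the member with the opposite direction, with the cysteine codon in capitals.

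Ighv8-6: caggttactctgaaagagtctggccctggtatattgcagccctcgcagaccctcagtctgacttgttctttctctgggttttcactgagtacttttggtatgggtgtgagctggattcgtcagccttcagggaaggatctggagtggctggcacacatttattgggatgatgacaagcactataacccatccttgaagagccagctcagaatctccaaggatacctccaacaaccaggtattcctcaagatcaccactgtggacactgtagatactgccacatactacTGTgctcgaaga

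The other family 8 segments were chosen for naming after their values were seen. Ighv8-9 (chr12:115468332-115468632), with the serine codon, measured 0.195 and 0.946 RPKM, from 10 and 55 reads, a ratio of 4.85 (1.85 to 16.1). It was under 1 RPKM in both libraries and so did not count as measured. Ighv8-4 measured 0.757 and 1.23 RPKM, a ratio of 1.63 (0.906 to 3.01) that holds 1. Ighv8-13 measured 1.03 and 0.546 RPKM, a ratio of 0.533 (0.267 to 1.03) that holds 1 as well. Ighv8-11 measured 2.93 and 0.447 RPKM. Ighv8-6, Ighv8-9 and Ighv8-13 are each at least 97% identical to another of the 3, and how reads shared between copies were counted is not given in the sources used here. Ighv8-12, 89.4% identical to Ighv8-6, was among the 10 most abundant segments of C/C and had a ratio of 0.0893 (0.0598 to 0.129).

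Another segment with a ratio of 2 or more, Ighv1-62-1, likewise named after its values were seen, rests on a transcript of 90 bases with 8 and 20 reads, which overlaps the gene model Gm19331. Its ratio of 2.21 had an interval of 0.637 to 9.64. Of the other measured members within the size rule, named here after their values were seen, Ighv1-47 measured 2.45 and 1.29 RPKM and Ighv2-6-8 measured 1.18 and 0.711 RPKM. Segments listed at 0 in Δ/Δ alone numbered 5. The one with the most C/C reads, Ighv7-2, measured 0.480 RPKM in C/C from 29 reads. The counting interval of its ratio reached up to 0.256.

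The pair Ighv1-16 and Ighv1-24 shows how close copies can differ in level; it too was named after its values were seen. The sequences of their V exons (chr12:114665872-114666165 and chr12:114772928-114773221) are 98.0% identical, and the capitals mark the 6 differences, A8G, T125G, T165A, A169G, C189G and T192C with the Ighv1-16 base first.

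Ighv1-16: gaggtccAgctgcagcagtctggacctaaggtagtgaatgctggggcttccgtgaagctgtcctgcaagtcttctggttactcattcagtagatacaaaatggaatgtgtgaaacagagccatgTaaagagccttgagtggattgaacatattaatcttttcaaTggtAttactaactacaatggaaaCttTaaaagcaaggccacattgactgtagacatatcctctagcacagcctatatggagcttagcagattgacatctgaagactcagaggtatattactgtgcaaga
Ighv1-24: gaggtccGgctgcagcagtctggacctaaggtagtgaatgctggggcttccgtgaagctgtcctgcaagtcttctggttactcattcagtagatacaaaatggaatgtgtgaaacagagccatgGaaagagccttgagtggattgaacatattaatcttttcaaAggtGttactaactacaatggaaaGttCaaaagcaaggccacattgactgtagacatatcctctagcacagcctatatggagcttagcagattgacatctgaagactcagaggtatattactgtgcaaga

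Ighv1-16 measured 2.93 RPKM in C/C against 0.035 RPKM in Δ/Δ, from 147 and 2 reads. Ighv1-24 had 2 reads in C/C and 1 read in Δ/Δ. In C/C the reads of this pair were thus assigned almost entirely to Ighv1-16, and in Δ/Δ they were too few to tell. Over the 19 segments at least 97% identical to another, 9 were lower of 12 measured, and the median level of the 19 was 1.48 RPKM in C/C. Over the other 85 segments, 68 were lower of 74 measured, and the median level of the 85 was 4.29 RPKM in C/C.

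The makeup of the V total, unlike its level, can be compared as shares of V reads. Family 1 held 41.7% of V reads in C/C (exact binomial 95% interval 40.9 to 42.5) and 35.0% in Δ/Δ (33.01 to 37.0). Family 8 held 3.10% in C/C (2.83 to 3.39) and 8.29% in Δ/Δ (7.19 to 9.50). Family 14 held 5.14% (4.79 to 5.50) and 9.30% (8.14 to 10.6). These intervals did not overlap, and neither did those of family 9, with 7.18% (6.77 to 7.60) and 4.98% (4.10 to 5.93), or those of family 6, with 3.03% (2.76 to 3.32) and 1.995% (1.44 to 2.63). Families 2 and 5 held 10.7% and 12.2% in C/C and 11.8% and 12.9% in Δ/Δ, with overlapping intervals. The larger share of family 14 in Δ/Δ rested on Ighv14-2. Without the 3 most abundant segments of each library, family 14 held 4.01% of summed V RPKM in C/C against 2.39% in Δ/Δ, and family 8 held 4.06% and 11.98%.

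**Figure D3:**
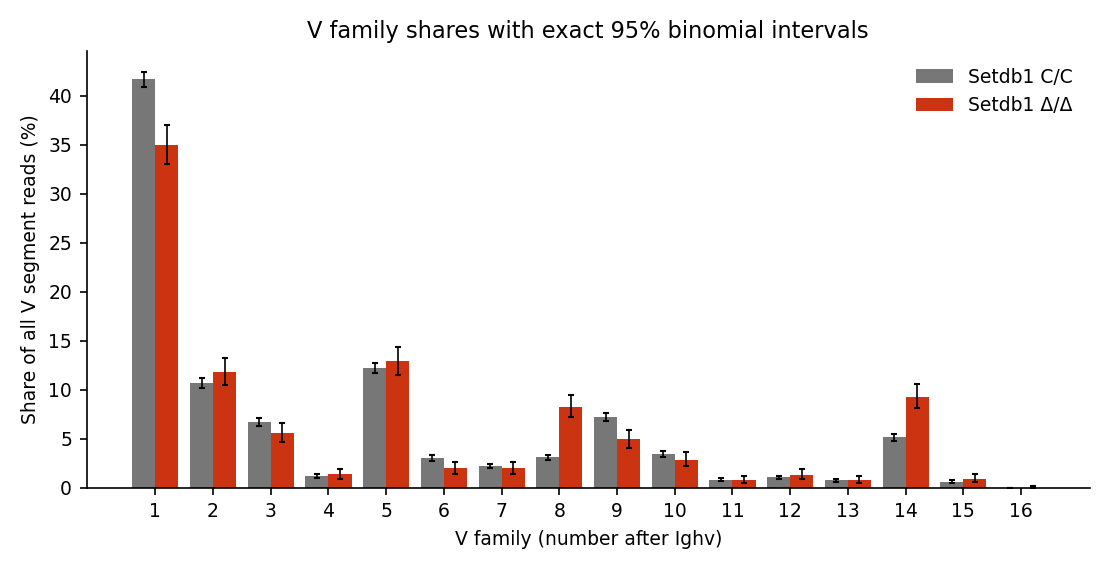
Share of all V segment reads (y axis, percent) held by each V family (x axis, the number after Ighv) in the C/C library (grey) and the Δ/Δ library (red), with exact 95% binomial intervals for 15139 and 2279 fragments. Families 8 and 14 have higher bars in Δ/Δ, at 8.29% and 9.30%, and family 1 a lower one, at 35.0%.

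The J segments and most constant genes, which can share a transcript with a joined V segment, were also lower. How many of their reads came from such transcripts was not tested. Ighj3 measured 558 RPKM in C/C against 107 RPKM in Δ/Δ, Ighj4 245 and 67.3 RPKM, and Ighj1 123 and 46.3 RPKM. Ighj2 measured 3.58 and 4.50 RPKM. Their pooled ratio was 0.246 (0.230 to 0.263), above that of the V segments, with 3 of 4 lower. Ighm, the constant gene of the first antibody class, measured 3274 and 1143 RPKM, a ratio of 0.349, above that of the V segments. The constant genes of the IgG class had lower ratios. Ighg2b measured 87.9 and 11.4 RPKM, a ratio of 0.129, close to the pooled ratio of the V segments. Ighg2c measured 1.16 and 0.102 RPKM, from 239 and 24 reads, and Ighg3 0.821 and 0.010 RPKM, from 152 and 2 reads. Ighg1 had 28 reads in C/C and 0 in Δ/Δ. Igha, that of the class found in secretions, was higher, at 0.113 and 1.13 RPKM. The 18 D segments together had 11 and 14 reads, too few for a comparison.

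The light chain V segments give the closest sets for comparison. Of 71 measured Igkv segments 61 were lower and 1 higher. Their median log2 ratio was -2.19, with a pooled ratio of 0.210 (0.202 to 0.218). All 3 Iglv segments were lower, with a pooled ratio of 0.150 (0.142 to 0.158). The heavy chain V segments, at 0.133, had the lowest pooled ratio of the 3 sets, but the highest median ratio: over segments with at least 20 reads it was 0.109 for heavy chain V, 0.0888 for Iglv and 0.0629 for Igkv. T cell receptor V segments had 10 measured, 6 of them lower and 2 higher.

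Most genes of V(D)J recombination and V accessibility lay within the size rule. Of the 39 listed genes found in the table, all measured, 5 were lower and 0 higher, with a median log2 ratio of -0.23. The same rule called 6.66% of all measured genes lower and 6.28% higher. Rag1, a subunit of the recombinase, measured 27.3 RPKM in C/C against 6.64 RPKM in Δ/Δ, while Rag2, the other subunit, measured 5.88 and 5.40 RPKM. Ikzf3, which encodes the zinc finger factor Aiolos, measured 63.7 and 13.5 RPKM. Wapl, which encodes the cohesin release factor, measured 9.55 and 3.71 RPKM. Pax5, which encodes the factor that commits cells to the B lineage, measured 201 and 97.5 RPKM, with a log2 ratio of -1.04. The fifth was Ighm. After centring on the median of all measured genes, 4 of the 5 were lower, without Pax5. Yy1, Ezh2 and Ctcf were at similar levels in both libraries: Yy1 measured 27.4 and 26.1 RPKM, Ezh2 75.6 and 75.8 RPKM, and Ctcf 54.6 and 46.6 RPKM. Ikzf1, which encodes Ikaros, measured 144 and 94.5 RPKM. Dntt, which encodes the polymerase that adds bases at the joints, measured 142 and 256 RPKM. Of the octamer factors that act on V promoters, Pou2f2 measured 8.54 and 4.30 RPKM, and its coactivator Pou2af1 302 and 280 RPKM.

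**Figure D4:**
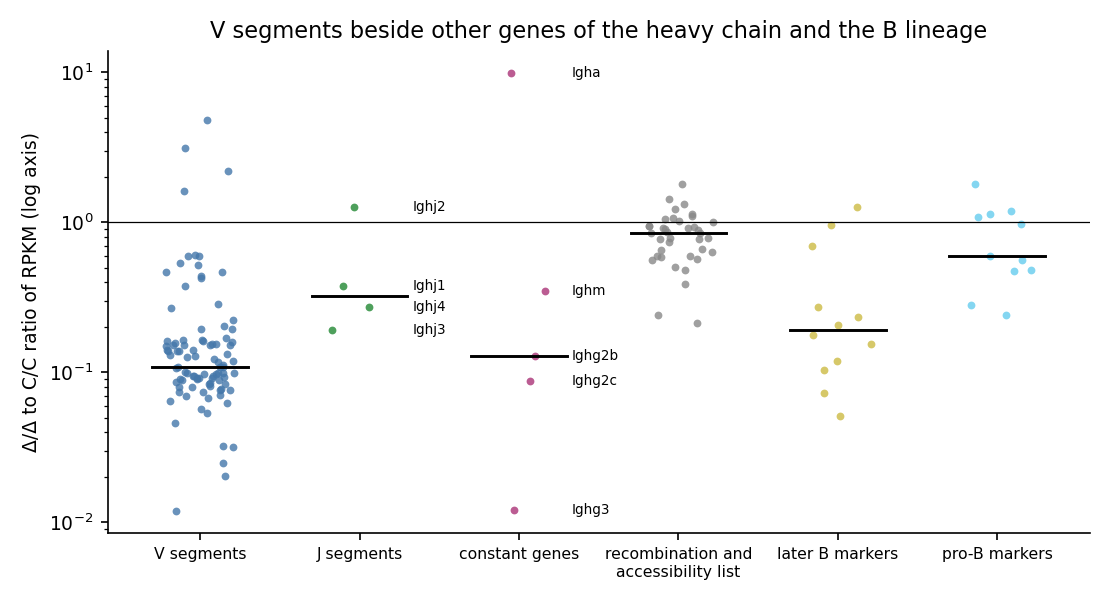
Ratio of Δ/Δ to C/C RPKM (y axis, log) for 6 sets of genes (x axis), with 1 point per gene and a black bar at the median: V segments with at least 20 reads, J segments, 5 heavy chain constant genes, the recombination and accessibility list without Ighm, measured later B markers and pro-B markers. Points are spread sideways for legibility, and Ighv7-2, at 0, enters the median but is not drawn. The V segments have a median of 0.109, and most of the recombination genes lie close to 1.

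Markers of cell stages and of other cells differed between the libraries too. The pro-B list was present in both: its 11 markers summed to 4503 RPKM in C/C against 3286 RPKM in Δ/Δ, with 4 lower and 0 higher and a median log2 ratio of -0.74. Cd79a, which encodes a signalling subunit of the B cell receptor, measured 548 and 153 RPKM, and Vpreb1, a surrogate light chain gene, 745 and 893 RPKM. Of 12 measured later B markers 9 were lower and 0 higher, with summed levels over the list of 1648 and 481 RPKM. Ms4a1, which encodes CD20, measured 69.3 and 5.07 RPKM. Myeloid markers had 5 higher and 0 lower of 8 measured, with sums of 23.9 and 231 RPKM, and Mpo and Elane were listed at 0 in C/C. Lyz2, at 9.01 and 120 RPKM, S100a9, at 5.44 and 56.2 RPKM, and S100a8, at 0.463 and 30.8 RPKM, made up most of these sums. S100a8 and Fcer1g, the latter at 0.869 and 6.95 RPKM, passed the filter through Δ/Δ alone. Within the rule lay Csf1r, at 4.04 and 7.17 RPKM, Itgam, at 2.01 and 2.75 RPKM, and Cebpb, at 0.814 and 1.32 RPKM. Dendritic markers had 4 of 4 measured higher, with sums of 1.55 and 13.3 RPKM, and erythroid and platelet markers 5 of 5, with sums of 7.05 and 72.0 RPKM. T cell markers summed to 102 and 96.5 RPKM, with 2 higher and 1 lower of 4 measured and Cd3e listed at 0 in C/C. Lat, at 75.7 and 36.3 RPKM, and Thy1, at 23.7 and 55.7 RPKM, made up most of these sums. Cd4 measured 0.150 and 2.62 RPKM, and Zap70 2.06 and 0.933 RPKM. Cd3d measured 0.031 and 0.348 RPKM, Cd3g 0.040 and 0.379 RPKM, and Cd8a 0.017 and 0.117 RPKM. Of 5 plasma cell markers, 2 were measured, 1 of them higher, with sums of 203 and 422 RPKM. Mzb1, the higher one, made up most of these sums, at 190 and 413 RPKM. Sdc1 measured 12.3 and 8.02 RPKM, Prdm1 0.558 and 0.224 RPKM, and Jchain 0.661 and 0.705 RPKM. Tnfrsf17 measured 0.029 and 0.013 RPKM. The part that the makeup of the cultures has in the lower V levels was not tested.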

How the data were processed

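RNA was measured in 2 libraries, 1 per genotype. The deposited table holds 1 RPKM value per transcript and library, rounded by the authors to 3 decimals; its columns, headed Wt and Del, were taken for C/C and Δ/Δ from the genotypes in the labels. TopHat2 2.0.9, bedtools and the builds mm9 and mm10 are listed in the submitters' processing notes. The build and annotation release of this table, and the handling of strand and of reads shared by several places, were not given in the sources used here. Per the labels' protocols, ribosomal RNA was depleted and sequencing was paired-end, 101 bp.

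Transcripts were matched by identifier to GENCODE M21 (GRCm38), which left 4044 of 93615 unmatched. Each gene is represented by its transcript of highest mean RPKM. RPKM times the annotated length gave whole reads, within 0.1, for 96.4% (C/C) and 95.7% (Δ/Δ) of low values, and for 80 of the 104 members in both libraries; the other 24 may have another length in the authors' annotation. More transcripts held 2 reads than 1 (641 against 588 in C/C), so 2 reads were taken as 1 fragment. The pseudocount was 0.5 RPKM and the log2 threshold 1. No test was possible with 1 library per group. A fold on the log2 scale understates changes of low genes.

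Proximal, middle and distal are groups of equal gene number. Named members are those higher by the rule, the 10 highest in C/C and 6 highest in Δ/Δ, the 8 lowest log2 ratios and the 5 closest to 0 at 5 RPKM or more in C/C, the 3 most proximal and 3 most distal measured, and the highest of each family. Members and lists were chosen with earlier results of these data known. The steps were checked on simulated reads for the C/C against Δ/Δ comparison over 89571 transcripts. Of transcripts raised 4-fold 100% were called, as were 100% of those lowered to 0.1 and 7 of 45991 unchanged ones. The changed transcripts were all well expressed in C/C, with changes larger than the size rule, and the simulated reads varied by counting error only. The check therefore gives no rate of false calls between cultures. Computations used Python 3.11.15, pandas 2.3.3, scipy 1.17.1, Biopython 1.88 and matplotlib 3.10.9.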

Additional observations from a re-analysis of the deposited data

How the results depend on the processing

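The direction of the V segments held under each alternative run: the median log2 ratio lay between -2.97 and -1.82 over 8 alternatives, and 94 of 110 recomputed comparison values kept their call or size. Lower members numbered 38 of the 39 that reached 5 RPKM, and 57 under a 4-fold rule. All 39 passed the 5 RPKM filter through C/C, as 0 members reached it in Δ/Δ. That filter thus fixed their direction and cannot check it. The 1 RPKM filter likewise fixed the direction of each member that reached it in 1 library only. The count of higher members was least stable: 2 with a pseudocount of 0.1 RPKM, 0 with a pseudocount of 1 RPKM, 2 with no filter, 0 with a filter of 5 RPKM, 0 under the 4-fold rule and 3 by plain ratio among members with at least 20 reads. Family 8 had a value of -2.98 with the 5 RPKM filter, which leaves Ighv8-12 alone. Its median was -1.86 without Ighv8-6, Ighv8-9 and Ighv8-13, and -0.04 with no filter. The median of family 3 was -2.71 with a pseudocount of 0.1 RPKM and -3.11 with the 5 RPKM filter, which leaves Ighv3-6 and Ighv3-8. The C/C share of family 8 was 3.10% by reads. Without the 3 most abundant segments of each library, the shares in C/C and Δ/Δ were 49.7% and 46.1% for family 1, 4.06% and 11.98% for family 8, and 4.01% and 2.39% for family 14. Of 112 values of named members, 109 kept their call and 3 lost it: Ighv5-2 at -0.97 after centring on the median and with a pseudocount of 1 RPKM, and Ighv8-6 at 0.90 with that pseudocount. The plain-ratio rule, the leaving out of close copies in family 8 and of members without whole reads were chosen after seeing the data. Depth limits the low segments: 3 fragments in Δ/Δ correspond to 0.0674 to 0.106 RPKM. No paired analysis was possible because each genotype has 1 library.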
